A study of Mus musculus with 22 samples.

Results

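The balance between an active and a repressive histone mark was described at transcription start sites (TSS) of mouse neural progenitor cells (NPC). H3K4me3 and H3K27me3 were profiled by CUT&RUN. This assay cuts out and sequences the DNA next to an antibody, here one against the mark. Members were chosen by label: the 2 H3K4me3 and 2 H3K27me3 libraries of NPC, with the 1 IgG library of NPC as the background, so 5 of the 22 libraries of the series were described. Each library was counted over 24467 windows of 5000 bp, each centred on the TSS of 1 gene. The 4 ESC libraries of the same marks were used for the change from the cells of origin.

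The cells were C57BL/6 mouse embryonic stem cells (ESC) with the genotype label "untagged, Tir1", and the treatment label read "untreated" in all groups. ESC grew in serum-free medium with 100 U/mL LIF, 3 µM CHIR99021 and 1 µM PD0325901, a mixture that holds them in the naive state. For NPC this medium was replaced by one with 10 ng/mL bFGF for 72 h and then by one with 500 nM SAG, an agonist of the Hedgehog receptor component Smoothened, for 48 h. The antibodies were Abcam ab8580 for H3K4me3 and Cell Signaling clone C36B11 for H3K27me3. The series states 2 biological replicates per antibody, but the labels do not say whether they came from separate differentiations, so p-values measure the spread between these libraries. IgG had 1 library, assumed to vary like the other groups.

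H3K4me3 is placed around the start sites of active and poised genes by SET1 and MLL complexes. H3K27me3 is placed by the Polycomb complex PRC2 and marks genes kept silent, many of them developmental regulators. In stem and progenitor cells the marks are known to meet at CpG-rich promoters of such regulators, which are then called bivalent. In the neural tube, Hedgehog signalling is known to induce ventral genes such as Nkx2-2, Olig2, Ptch1 and Gli1.

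The 250 bases before 5 starts are shown because these genes span the range of the marks described below: H3K4me3 far above H3K27me3 at Sox11, similar values of both at Nkx2-2, H3K27me3 above a lower H3K4me3 at Pax6, H3K27me3 with little H3K4me3 at Hoxa11, and neither at the olfactory receptor gene Olfr1465. They come from RefSeq (GRCm38.p6, the build also named mm10), are written 5′ to 3′ on the gene's strand, and have the dinucleotide CG in capitals.
Sox11: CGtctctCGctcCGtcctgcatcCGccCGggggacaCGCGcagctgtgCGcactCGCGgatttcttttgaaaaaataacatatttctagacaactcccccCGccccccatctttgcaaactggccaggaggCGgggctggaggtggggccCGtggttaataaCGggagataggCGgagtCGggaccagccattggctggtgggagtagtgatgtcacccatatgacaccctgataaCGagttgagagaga
Nkx2-2: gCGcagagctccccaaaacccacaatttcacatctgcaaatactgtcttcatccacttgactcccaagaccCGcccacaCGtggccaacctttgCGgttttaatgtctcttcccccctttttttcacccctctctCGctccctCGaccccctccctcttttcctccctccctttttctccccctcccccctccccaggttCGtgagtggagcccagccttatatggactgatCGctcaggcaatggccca
Pax6: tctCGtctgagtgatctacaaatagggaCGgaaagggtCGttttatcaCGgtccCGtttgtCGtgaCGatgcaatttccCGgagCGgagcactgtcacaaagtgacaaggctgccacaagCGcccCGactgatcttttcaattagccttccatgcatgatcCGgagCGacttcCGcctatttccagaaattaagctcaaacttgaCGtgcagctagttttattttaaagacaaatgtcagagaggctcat
Hoxa11: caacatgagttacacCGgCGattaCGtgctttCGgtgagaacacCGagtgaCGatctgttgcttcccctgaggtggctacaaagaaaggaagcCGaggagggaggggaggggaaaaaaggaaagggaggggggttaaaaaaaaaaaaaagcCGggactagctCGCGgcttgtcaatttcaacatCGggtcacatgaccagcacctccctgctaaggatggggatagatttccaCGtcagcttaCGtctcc
Olfr1465: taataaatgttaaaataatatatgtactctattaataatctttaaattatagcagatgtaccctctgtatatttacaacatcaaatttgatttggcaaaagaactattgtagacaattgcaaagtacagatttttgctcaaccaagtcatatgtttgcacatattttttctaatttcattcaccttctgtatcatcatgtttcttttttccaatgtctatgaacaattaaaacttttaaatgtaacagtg
They lie at chr12:27342719-27342968 (Sox11, minus strand), chr2:147186403-147186652 (Nkx2-2, minus), chr2:105682213-105682462 (Pax6, plus), chr6:52245811-52246060 (Hoxa11, minus) and chr19:13314284-13314533 (Olfr1465, minus). CG, which reads the same on both strands, occurred 17 times before Sox11, 8 times before Nkx2-2, 15 times before Pax6 and 13 times before Hoxa11, and the stretch before Olfr1465 held 0. The median over the 32851 promoters of the RefSeq table was 6, and 92.1% held at least 1. At least as many as in the given stretch were held by 23.5% of promoters for Sox11, 43.0% for Nkx2-2, 27.3% for Pax6 and 31.5% for Hoxa11.

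The libraries differed in depth and in background. Total counts were 3264267 and 8425292 for H3K4me3, 902245 and 1569812 for H3K27me3 and 667898 for IgG (replicates 1 and 2). Windows of 1450 olfactory and vomeronasal receptor genes, which are silent outside sensory neurons, averaged 1.93 and 0.838 CPM (counts scaled to the same library total in every library) for H3K4me3, 17.3 and 7.70 for H3K27me3 and 22.6 for IgG. H3K27me3 replicate 2 held 19.6% of its counts in its top 1% of windows against 11.04% in replicate 1. Across windows the log2 CPM of the 2 H3K4me3 libraries correlated at r = 0.989 and that of the 2 H3K27me3 libraries at r = 0.911, a description over windows that are not independent. Of the windows, 5370 overlapped another window, so neighbouring genes can share counts.

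Balance was taken as log2 H3K4me3 over H3K27me3, each as a share of its library, with its standard error (SE) from the edgeR quasi-likelihood fit and a call at an adjusted p below 0.05. H3K4me3 was higher at 9322 of 23948 tested windows (38.9%) and H3K27me3 at 11952 (49.9%), so that 88.8% were called in either direction and 2674 were not called. Without H3K4me3 replicate 2 these counts were 5284 and 3181, and without H3K27me3 replicate 1 the second was 7790. A window called for H3K27me3 in this way need not carry the mark. Of the 11952, 7877 (65.9%) had fewer CPM than IgG in both H3K27me3 libraries. Likewise 1080 of 1112 tested olfactory receptor windows were called for H3K27me3, although at 808 of all 1116 both H3K27me3 libraries were below IgG. At Olfr1465 the H3K4me3 libraries held 0.000 and 0.237 CPM, the H3K27me3 libraries 16.6 and 7.64, and IgG 16.5. The balance was therefore read beside each mark's own level over background, and a gene's place was read against the median of all tested windows, -1.09. Other scalings moved all windows together, by -0.24 (TMM), 0.76 (DESeq2) or 3.23 (scaling by the receptor windows). The last of these gave 12703 windows with more H3K4me3 and 196 with more H3K27me3, so calls for H3K27me3 hold for shares of library totals.

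Over IgG, H3K4me3 was called at 3936 windows (16.4%) and H3K27me3 at 1887 (7.88%), at an adjusted p below 0.05 and at least 2-fold, and 65 (0.271%) were called for both. These counts leaned on the scaling and on single libraries. With TMM factors they were 8320, 2982 and 477. Without H3K4me3 replicate 1 they were 353, 0 and 0 and without H3K4me3 replicate 2 they were 16, 0 and 0, by edgeR. The unadjusted p stayed below 0.05 for H3K27me3 at 1468 and 1502 windows in these 2 fits, and DESeq2 on all 5 libraries called 1783. Without H3K27me3 replicate 1 or 2 the windows called for both were 167 and 107.

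A rule without a model was therefore added after the data had been seen. It takes each library's ratio to IgG and asks whether it lies above the 99th percentile of the 1450 receptor windows in both libraries of a mark. The limits were 2.67-fold and 2.89-fold for H3K4me3 and 2.50-fold and 2.46-fold for H3K27me3. H3K4me3 passed at 13953 windows (57%) and H3K27me3 at 1990 (8.13%). Both marks passed at 1711 (6.99%), H3K4me3 alone at 12242 (50.0%), H3K27me3 alone at 279 (1.14%) and neither at 10235 (41.8%). H3K27me3 in NPC thus lay mostly where H3K4me3 was also above background: 86.0% of its 1990 windows had both, while 12.3% of the H3K4me3 windows did. The ratios of both marks use the same IgG library, so a low IgG count raises them together and the calls are not independent. Among the 1887 windows that the model called for H3K27me3, 1625 (86.1%) had H3K4me3 above this receptor limit, but the model itself called H3K4me3 over IgG at 65 of them. At the 95th percentile 2488 windows passed for both and 301 for H3K27me3 alone.

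**Figure D1:**
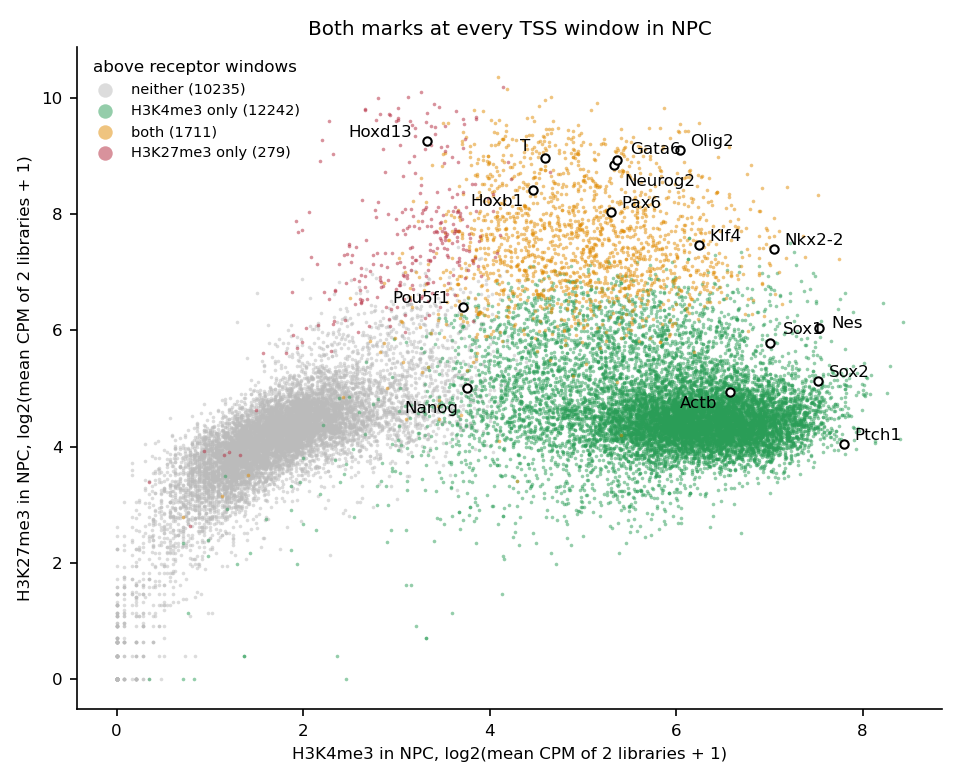
Mean CPM of the 2 libraries of each mark in NPC at every window, as log2(CPM + 1), H3K4me3 on the x axis and H3K27me3 on the y axis; each point is a TSS window, coloured by the receptor window rule, and open circles are the landmark genes. The 1711 windows with both marks fill the upper middle, the 12242 with H3K4me3 alone the lower right, and Nkx2-2 lies toward the right edge of the windows with both.

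The classes differed in level. Windows with both marks had a median of 30.5 CPM for H3K4me3 and 179.5 for H3K27me3. Windows with H3K4me3 alone had 68.0 and 21.6, those with H3K27me3 alone 8.19 and 178.4, and those with neither 2.28 and 17.3. The H3K27me3 medians with and without H3K4me3 were thus nearly equal, whereas H3K4me3 beside H3K27me3 was below that of windows with H3K4me3 alone. The class rests on the same libraries, so these medians describe it. Within the class with both marks, H3K27me3 stood 2.14 above the receptor windows in replicate 1 and 3.74 in replicate 2 (median log2 ratio to IgG). SUZ12, a core subunit of PRC2, did not enter the class. Its ratio, like those of the subunits below, uses the same IgG library as the class, so it is not independent of the class. SUZ12 was above its receptor window limit in both of its NPC libraries at 313 windows (1.28% of all). It was so at 259 of the 1711 windows with both marks (15.1%), at 30 of the 279 with H3K27me3 alone (10.8%) and at 11 of the 12242 with H3K4me3 alone (0.0899%). MTF2, an accessory subunit of PRC2, was above at 90 windows with both marks (5.26%) and 15 with H3K27me3 alone (5.38%), against 0.466% of all. JARID2, another accessory subunit, passed at 17 windows with both marks (0.994%) against 0.151% of all. Of the 37 windows where it passed, 14 had neither mark. Why so few windows passed for JARID2 was not tested. The 1990 H3K27me3 windows were ordered by balance and cut into 4 equal groups. SUZ12 was above its limit in 31.1% of the group with the lowest balance and in 13.7%, 6.44% and 6.83% of the next 3. The median H3K27me3 of the groups fell in the same order, from 3.76 to 2.43 above the receptor windows. The balance contains H3K27me3 of the same libraries, so this fall is built into the ordering.

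Genes of the naive pluripotent state, neural progenitors and the Hedgehog response differed in where their members stood. Of 25 neural progenitor genes, H3K4me3 was higher at 18 (38.9% of all windows) and H3K27me3 at 6 (49.9% of all windows), with a median balance of 1.38, which is 2.47 above that of all windows. With TMM factors H3K4me3 was higher at 12 of them. Of 20 genes of the Hedgehog response and ventral neural tube, 8 had more H3K4me3, close to the 38.9% of all windows. H3K27me3 was higher at 6 of the 20 (49.9% of all windows), and 6 were not called. The median of the 20 was 0.05, and -0.32 with TMM factors. Receptor window scaling gave 14 with more H3K4me3 and 0 with more H3K27me3 (1 at an unadjusted p below 0.05, edgeR), against 5 with more H3K27me3 by DESeq2. By the receptor window rule 10 of these 20 carried both marks, against 6.99% of all windows. The model called both over IgG at 5 of the 20, against 0.271% of all windows. Of 21 naive pluripotency genes, 17 had more H3K27me3 and Sall4 alone had more H3K4me3, against 49.9% and 38.9% of all windows. Their median of -1.93 lay 0.84 below that of all windows and was 1.15 with receptor window scaling. That scaling left 5 with more H3K4me3 and 0 with more H3K27me3 (0 also at an unadjusted p below 0.05, edgeR), while DESeq2 gave 11 with more H3K27me3.

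Sox1, the earliest neural SOX gene, had 130.2 and 125.3 CPM of H3K4me3 and 41.0 and 67.5 of H3K27me3, against 25.4 for IgG. All H3K4me3 values lay above all H3K27me3 values, with a balance of 1.19 ± 0.33 (SE; adjusted p = 5.28e-04). Sox2, shared by ESC and NPC, had 182.3 and 184.4 CPM of H3K4me3 and 33.2 and 34.4 of H3K27me3, for a balance of 2.43 ± 0.40. Nes, an intermediate filament gene of neural progenitors, had 194.2 and 174.2 against 55.4 and 74.5, for a balance of 1.49 ± 0.40. The highest of the list was Sox11, with 183.5 and 195.2 CPM of H3K4me3 and 21.1 and 12.7 of H3K27me3, a balance of 3.55 ± 0.43 (adjusted p = 1.69e-15). Pax6, a regulator of neural progenitors and eye development, went the other way. Its H3K4me3 was 34.3 and 42.6 CPM and its H3K27me3 186.2 and 337.6, with IgG at 41.9. The balance was -2.77 ± 0.43 (adjusted p = 4.41e-10), and 0.33 with receptor window scaling. Lhx2, a forebrain and eye regulator, was the lowest of the list, at 18.4 and 17.3 CPM of H3K4me3 against 458.9 and 791.8 of H3K27me3.

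Within the Hedgehog list the balance ran from -5.20 to 3.86. Ptch1, the Hedgehog receptor and a direct target of the pathway, had 215.7 and 226.8 CPM of H3K4me3 and 17.7 and 13.4 of H3K27me3. Its balance was 3.86 ± 0.47 (adjusted p = 2.18e-15), the highest of the list. Nkx2-2, a ventral progenitor regulator, carried both marks: 129.3 and 133.3 CPM of H3K4me3 beside 116.4 and 218.5 of H3K27me3, with IgG at 31.4. Its values overlapped and the balance was -0.36 ± 0.40 (adjusted p = 0.381). It was called over IgG for H3K4me3 (log2 2.06, adjusted p = 0.00335) and for H3K27me3 (2.43, adjusted p = 0.00339), and its window overlaps another one. Olig2, the regulator of the motor neuron domain, had 62.8 and 66.8 CPM of H3K4me3 and 392.4 and 710.3 of H3K27me3. The balance was -3.09 ± 0.53 (adjusted p = 1.37e-08) and -0.03 with receptor window scaling. Dbx1, a regulator of intermediate progenitors, was the lowest of the list at -5.20 ± 0.58.

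Of the pluripotency genes, Pou5f1 had 12.9 and 11.4 CPM of H3K4me3 and 66.5 and 100.6 of H3K27me3 against 43.4 for IgG. H3K27me3 was higher in both libraries, with a balance of -2.84 ± 0.30, and 0.26 with receptor window scaling. H3K27me3 at Pou5f1 did not pass over IgG (log2 0.98, adjusted p = 0.0788). Nanog was low for both, at 9.80 and 15.2 CPM of H3K4me3 and 38.8 and 23.6 of H3K27me3, the latter below its IgG value of 43.4. Klf4 carried both marks, with 80.6 and 69.7 CPM of H3K4me3 and 133.0 and 219.8 of H3K27me3. Its balance of -1.25 ± 0.38 was near the median of all windows. Fgf4, the lowest of the list, had 15.9 and 13.9 CPM of H3K4me3 and 351.3 and 592.4 of H3K27me3, a balance of -4.99 ± 0.55. By the receptor window rule 12 of the 21 pluripotency genes carried both marks and 4 H3K4me3 alone, against 6.99% and 50.0% of all windows. The model called both over IgG at 1 of the 21 and H3K27me3 alone at 10. With receptor window scaling Nanog and Klf4 stood at 2.13 and 1.79.

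Some landmark calls rested on single libraries or on the scaling. Sox1 lost its call without H3K4me3 replicate 1 or 2 (adjusted p = 0.0784 and 0.0844), as did Olig2 (0.0650 and 0.0856), Nanog (0.276 and 0.137) and Klf4 (0.0766 and 0.155). The balance of Nkx2-2 was -0.73 without H3K27me3 replicate 1 (adjusted p = 1.22e-10) and 0.18 without replicate 2 (adjusted p = 0.279). With TMM factors Sox1 and Nes were not called (adjusted p = 0.0702 and 0.0635), and with DESeq2 Nanog and Klf4 were not (adjusted p = 0.431 and 0.258). Receptor window scaling ended the calls of Lhx2 (-2.10, adjusted p = 0.0678), Dbx1 (-2.14, adjusted p = 0.0642), Fgf4 (-1.97, adjusted p = 0.0951), Olig2, Pax6, Pou5f1 and Klf4.

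**Figure D2:**
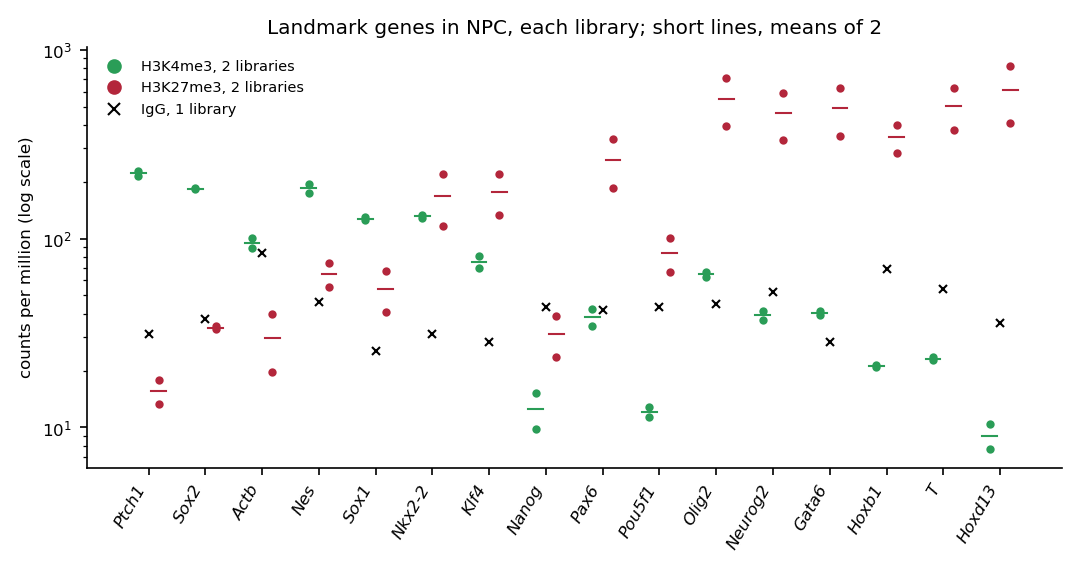
CPM on a log axis at the 16 landmark genes in NPC, ordered by balance; green points are the 2 H3K4me3 libraries, red points the 2 H3K27me3 libraries, crosses the IgG library, and short lines the means of 2. The points of the 2 H3K4me3 libraries lie close together, those of H3K27me3 spread more widely, and the marks overlap at Nkx2-2.

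The mark levels of other cell types' markers were checked beside these values. All 8 neural progenitor markers had H3K4me3 above the receptor window limit. So did 6 of 8 ESC markers, 5 of 8 neuronal markers, 1 of 7 glial markers and 7 of 8 mesoderm and endoderm markers. Of all windows, 57% passed this limit. H3K27me3 passed its limit at 1 neural progenitor, 4 ESC, 1 neuronal, 1 glial and 7 mesoderm and endoderm markers (8.13% of all windows). In the same order, H3K27me3 was higher at 1, 7, 3, 6 and 7 markers (49.9% of all windows). H3K4me3 was higher at 7 neural progenitor and 2 neuronal markers and at 0 of the others (38.9% of all windows). Summed H3K4me3 over the 8 ESC markers was 192.4 and 193.8 CPM in NPC against 1306 and 1367 in ESC. Over the 8 neural progenitor markers it was 1059 and 1076 in NPC against 508.5 and 500.1 in ESC. These are averages over all cells of a culture, so fewer cells with a mark and less mark per cell cannot be told apart, and both marks at 1 window need not lie in the same cells. The part of ESC remaining in the culture in the pluripotency values was not tested.

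The Hox genes, which pattern the body axis, stood at the H3K27me3 end. H3K27me3 was higher at 37 of 39 Hox genes (49.9% of all windows), with Hoxa2 and Hoxb2 not called, and the median balance was -5.87. Receptor window scaling left 26 of the 39 with more H3K27me3 and called 2, Hoxa2 and Hoxb2, for H3K4me3. The cluster medians were -5.87 (HoxA), -4.67 (HoxB), -6.66 (HoxC) and -6.11 (HoxD), and all 4 were below 0 under each scaling. Mean H3K27me3 of the 39 genes ranged from 207.6 to 1315 CPM and mean H3K4me3 from 3.19 to 182.4. By the receptor window rule 24 passed for both marks (6.99% of all windows) and 15 for H3K27me3 alone (1.14%). The model called both marks over IgG at 1 HoxB gene, Hoxb2, and H3K27me3 alone at every other Hox gene. The median H3K4me3 of the 39 was 14.9 CPM, so both marks at most of the 24 rest on the receptor window rule. SUZ12 was above its limit at 32 (1.28% of all windows). Windows of 24 of the 39 overlap another window.

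The balance was also set out by paralogue group, the number that orders Hox genes from anterior to posterior expression. The 12 genes of groups 1 to 4 had a median of -3.27 (range -6.56 to -0.62), the 15 of groups 5 to 9 one of -5.45 (-7.03 to -3.41) and the 12 of groups 10 to 13 one of -6.80 (-7.34 to -5.68). This split was chosen after the values were seen and was not tested. Hoxa2 had 135.4 and 136.7 CPM of H3K4me3 beside 128.6 and 286.7 of H3K27me3, a balance of -0.62 ± 0.43 (adjusted p = 0.156). Hoxb2 had 175.2 and 189.5 beside 229.4 and 414.1, a balance of -0.82 ± 0.47 (adjusted p = 0.0865). Both were called for H3K27me3 in a fit over all 22 libraries (adjusted p = 0.0185 and 0.0111) and with voom (adjusted p = 0.0139 and 3.27e-04). With receptor window scaling both were called for H3K4me3 instead (2.39 and 2.24, adjusted p = 0.0222 and 0.0218, edgeR). Without H3K27me3 replicate 1 they stood at -1.07 and -1.17. Without replicate 2 Hoxb2 stood at -0.32 and Hoxa2 at 0.08. In contrast, Hoxa11 held 4.29 and 6.41 CPM of H3K4me3 and 577.4 and 1228 of H3K27me3, the lowest Hox balance at -7.34 ± 0.70 (adjusted p = 4.36e-24). Hoxd13 held 10.4 and 7.71 CPM against 411.2 and 818.6, a balance of -6.11 ± 0.62. Hoxc4, the most anterior HoxC gene, was the highest of its cluster at -1.85 ± 0.42, a call lost without H3K4me3 replicate 2 (adjusted p = 0.0738). Hoxb6, the lowest of HoxB at -6.36 ± 0.69, lost its call without H3K4me3 replicate 1 or 2 (adjusted p = 0.0876 and 0.128).

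**Figure D3:**
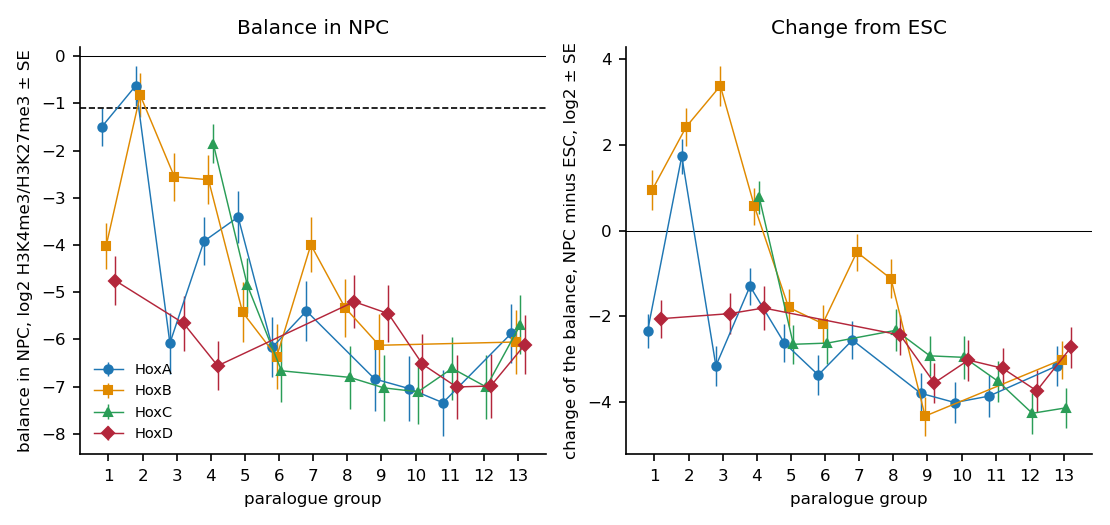
Balance in NPC (left, log2 H3K4me3 over H3K27me3) and change of the balance from ESC (right) at the 39 Hox genes by paralogue group, with SE bars from edgeR, 1 colour per cluster and lines joining the genes of a cluster; the dashed line is the median of all windows, -1.09. Hoxa2 and Hoxb2 stand near that line, and all 12 genes of groups 10 to 13 lie between -7.34 and -5.68.

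The list medians of regulators of other fates stood between the Hox genes and the median of all windows. All 23 forebrain genes had more H3K27me3 (median -4.22), as had 16 of 17 genes of the dorsal neural tube and neural crest (-3.95). So had 26 of 27 of mesoderm (-3.80) and 15 of 15 of surface ectoderm and trophectoderm (-3.15). The same held for 14 of 15 of endoderm (-3.15) and 35 of 37 WNT, BMP and FGF ligands (-2.68). Of all windows, 49.9% had more H3K27me3. With receptor window scaling the endoderm and ligand medians were 0.09 and 0.38, and those of the other 4 were below 0. The calls for H3K27me3 mostly ended under that scaling, which left 2 of 23 forebrain, 3 of 17 dorsal, 2 of 27 mesoderm, 1 of 15 surface ectoderm, 2 of 15 endoderm and 4 of 37 ligand genes. Both marks passed the receptor window rule at most members of 5 of these lists, against 6.99% of all windows. They did at 21 of 23 forebrain, 15 of 17 dorsal, 18 of 27 mesoderm, 11 of 15 endoderm and 27 of 37 ligand genes. Of the surface ectoderm genes 7 of 15 had both. The model, in contrast, called both over IgG at 2 of 15 endoderm and 1 of 37 ligand genes and at 0 in the other lists. It called H3K27me3 alone at 22 forebrain, 15 dorsal, 21 mesoderm, 10 endoderm, 27 ligand and 8 surface ectoderm genes. Both marks at these genes thus rest mostly on the receptor window rule. SUZ12 was above its limit at 20 of the 23 forebrain genes and 11 of the 17 dorsal genes, against 1.28% of all windows.

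Rax, an eye field regulator, had the lowest forebrain balance at -5.70 ± 0.60, with 13.2 and 10.8 CPM of H3K4me3 and 442.2 and 789.3 of H3K27me3. Pax3, a regulator of dorsal progenitors and neural crest, was the lowest of its list at -5.43 ± 0.60. T, the mesoderm regulator brachyury, had 22.7 and 23.5 CPM of H3K4me3 against 377.9 and 626.2 of H3K27me3, a balance of -4.44 ± 0.54. Gata6, a regulator of endoderm, had 41.4 and 39.3 against 351.3 and 628.1, a balance of -3.61 ± 0.52. Receptor window scaling ended the calls of T (-1.37, adjusted p = 0.258) and Gata6 (-0.58, adjusted p = 0.663). Prox1, the highest endoderm gene, had 164.8 and 161.9 CPM of H3K4me3 beside 158.5 and 232.5 of H3K27me3 and was not called (-0.27 ± 0.43, adjusted p = 0.548). Without H3K27me3 replicate 1 it was called at -0.51, and without replicate 2 it stood at 0.04. Vax1, the highest forebrain gene at -1.97 ± 0.46, lost its call without H3K4me3 replicate 1 or 2 (adjusted p = 0.0881 and 0.113).

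Of 31 neuronal genes, 23 had more H3K27me3 and 3 more H3K4me3, against 49.9% and 38.9% of all windows. Their median was -3.08 (-0.02 with receptor window scaling, which left 3 with more H3K27me3). The proneural gene Neurog2 had 37.1 and 41.4 CPM of H3K4me3 and 331.4 and 591.2 of H3K27me3. Its H3K4me3 was below the IgG value of 52.4 CPM, so that the receptor window rule gave it both marks and the model H3K27me3 alone. Lhx5, an interneuron regulator, was the lowest at -5.62 ± 0.62. Elavl4, an RNA-binding protein of neurons, was the highest at 2.26 ± 0.33, with 75.4 and 91.9 CPM of H3K4me3 against 22.2 and 14.7 of H3K27me3. Of 14 glial genes 10 had more H3K27me3 (49.9% of all windows). The list ran from Nfix (-6.0 ± 0.59) to Sox9, which had more H3K4me3 (0.99 ± 0.41). Sox9 lost its call without H3K4me3 replicate 1 or 2 (adjusted p = 0.148 and 0.149) and with TMM factors (0.66, adjusted p = 0.327), and with the replicate number as a block (1.01, adjusted p = 0.0781). The glial median of -2.45 was 0.79 with receptor window scaling. Of 14 germline genes 11 had more H3K27me3 (49.9% of all windows; median -3.34). However, 10 of the 14 had neither mark above the receptor windows (41.8% of all windows). The median H3K27me3 of the 14 was 27.9 CPM. Of 23 imprinted genes 8 had more H3K4me3 and 11 more H3K27me3, close to the 38.9% and 49.9% of all windows, from Grb10 (-5.01 ± 0.48) to Ube3a (3.41 ± 0.39). The imprinted median of -0.60 was 0.15 with DESeq2 and 2.54 with receptor window scaling, which ended the call of Grb10 (adjusted p = 0.0871).

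Genes used in every cell stood at the H3K4me3 end under each scaling. H3K4me3 was higher at 21 of 22 housekeeping genes (38.9% of all windows; median 2.36), 9 of 11 PRC2 subunits (2.60) and 17 of 17 subunits and demethylases that write H3K4me3 or remove either mark (2.66). By the receptor window rule all 50 of these genes carried H3K4me3 alone, against 50.0% of all windows. Kdm6a, an X-linked H3K27 demethylase, had the highest balance of all tested windows that the naming rule allows, 4.52 ± 0.42, with 99.3 and 106.5 CPM of H3K4me3 and 5.54 and 3.82 of H3K27me3. Phf19, an accessory PRC2 subunit, was the exception in its list at -1.20 ± 0.27, a call lost without H3K4me3 replicate 1 or 2 (adjusted p = 0.0972 and 0.144) and with DESeq2 (-0.44, adjusted p = 0.343). Actb had 100.2 and 88.7 CPM of H3K4me3 and 39.9 and 19.8 of H3K27me3, a balance of 1.75 ± 0.32. Cell cycle genes lay between: of 10 inhibitors and D cyclins, H3K4me3 was higher at 5 (38.9% of all windows). Cdkn1b was the highest (3.05 ± 0.42) and the imprinted inhibitor Cdkn1c the lowest (-2.0 ± 0.33).

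**Figure D4:**
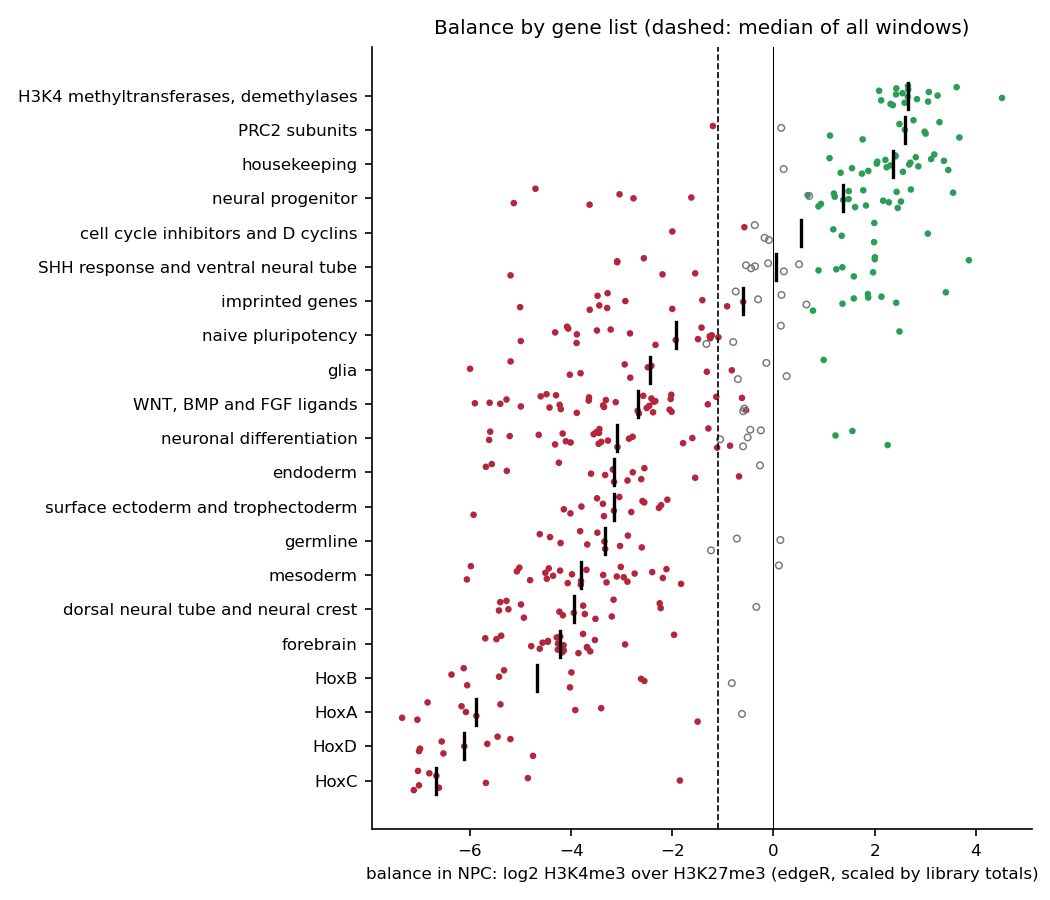
Balance in NPC (x axis, log2 H3K4me3 over H3K27me3) of each gene of 21 lists (rows, ordered by median); green and red points were called for H3K4me3 and H3K27me3, open points were not called, short lines are list medians, and the dashed line is the median of all windows. Hox clusters lie at the left, housekeeping genes at the right, and neural progenitor and Hedgehog genes spread over both sides.

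At the ends of the balance, the windows with the most H3K4me3 after Kdm6a included Igf2bp1 (4.34 ± 0.54), Kmt2e (4.15 ± 0.51) and Setd5 (4.08 ± 0.49). Igf2bp1, an RNA-binding protein of fetal tissues, had 329.9 and 345.4 CPM of H3K4me3 and 16.6 and 16.6 of H3K27me3. Those with the most H3K27me3 were Hotair (-7.76 ± 0.71), Hoxa11, Hoxa11os (-7.31 ± 0.69), Hoxc10 (-7.11 ± 0.68) and Dlx6os1 (-7.08 ± 0.63). Hotair, a long noncoding RNA inside HoxC, had 5.21 and 2.49 CPM of H3K4me3 and 596.3 and 954.3 of H3K27me3. Hoxa11 and Hoxa11os overlap and share counts. Of the windows that the model called for both marks, the highest lower fold over IgG was at Nkx2-2, Prox1, Ccnd2, Ppargc1b and Mamld1. Ccnd2, a D cyclin of proliferating progenitors, had 138.8 and 148.4 CPM of H3K4me3 beside 106.4 and 196.2 of H3K27me3, a balance of -0.09 ± 0.40 (adjusted p = 0.831). It was 0.44 without H3K27me3 replicate 2 and -0.44 without replicate 1, each called (adjusted p = 0.00928 and 1.98e-04).

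The balance in NPC was set against that in ESC by an interaction over the 8 libraries of both marks, which share the NPC libraries with the values above. It moved toward H3K4me3 at 3904 of 23958 windows (16.3%) and toward H3K27me3 at 4546 (19%). Without ESC H3K27me3 replicate 1 these counts were 2419 and 2222, and without NPC H3K27me3 replicate 2 the second was 7368. Scaling by the receptor windows moved all windows by -1.08 and gave 527 toward H3K4me3. Naive pluripotency genes moved the most of the lists, with 20 of 21 toward H3K27me3 and a median change of -4.56 (-5.67 with receptor window scaling). A move in this direction was not particular to them. Housekeeping genes moved toward H3K27me3 at 13 of 22 and toward H3K4me3 at 1 (median -1.79), and PRC2 subunits at 7 of 11 and 0 (-1.60). Silent olfactory receptor windows had a median change of 1.115, with 93 of 1111 called toward H3K4me3 and 4 toward H3K27me3. Neural progenitor genes moved toward H3K4me3 at 17 of 25 and toward H3K27me3 at 5, with a median of 1.78 (0.55 with receptor window scaling, which left 4 toward H3K4me3). Of the 20 Hedgehog genes 11 moved toward H3K4me3 and 3 toward H3K27me3, with a median of 1.07. TMM factors left 7 toward H3K4me3, and receptor window scaling 0 (1 at an unadjusted p below 0.05, edgeR) with a median of -0.18, while DESeq2 gave 10. Of 39 Hox genes 32 moved toward H3K27me3 and 3 toward H3K4me3 (32 and 0 with receptor window scaling, 31 and 3 with DESeq2, and with receptor window scaling 1 toward H3K4me3 at an unadjusted p below 0.05, edgeR). All 12 genes of groups 10 to 13 were among the 32 (median change -3.36), and the 3 were in groups 1 to 4 (median -0.37).

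At Pou5f1 H3K4me3 was 216.6 and 233.6 CPM in ESC and H3K27me3 6.21 and 4.63, so the change was -8.18 ± 0.48 (adjusted p = 5.29e-61). At Nanog the ESC values were 292.7 and 299.3 for H3K4me3 and 5.18 and 7.72 for H3K27me3, a change of -6.73 ± 0.58. In the ESC H3K27me3 libraries 3 counts correspond to 3.11 and 4.63 CPM. The ESC H3K27me3 of Pou5f1 and Nanog thus rests on few counts, and so does the size of their changes. At Nkx2-2 they were 20.6 and 12.2 for H3K4me3 and 182.3 and 162.1 for H3K27me3. Its H3K4me3 was higher in both NPC libraries while its H3K27me3 ranges overlapped, and the change was 2.97 ± 0.40 (adjusted p = 1.82e-12). At Sox1 H3K4me3 was 51.9 and 55.0 CPM in ESC and H3K27me3 164.7 and 159.0, a change of 2.78 ± 0.35. Olig2 moved toward H3K27me3, from 92.2 and 90.8 CPM of H3K4me3 and 78.7 and 92.7 of H3K27me3, a change of -3.20 ± 0.45. Ptch1 had 174.7 and 177.6 CPM of H3K4me3 in ESC already, and its change of -0.48 ± 0.68 was not called (adjusted p = 0.607).

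**Figure D5:**
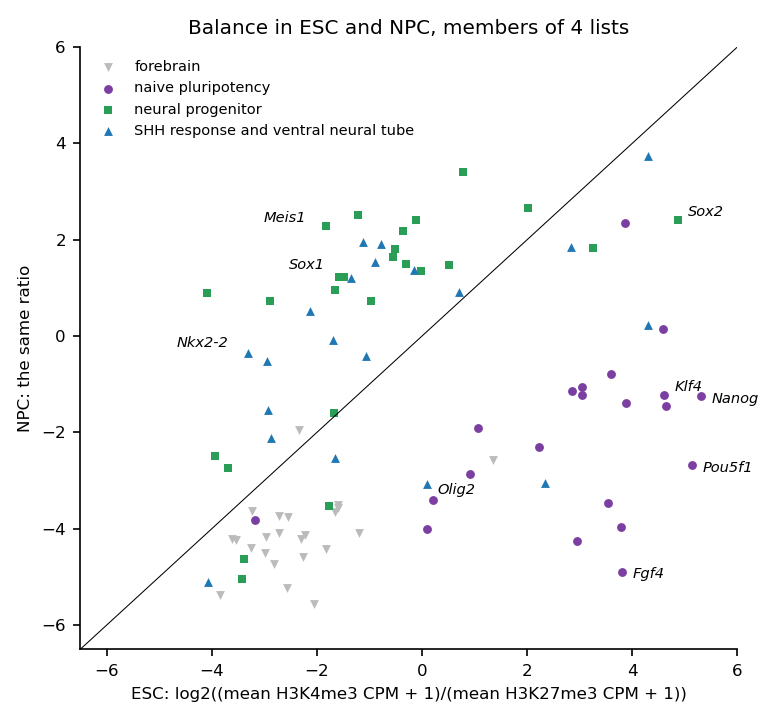
Balance in ESC (x axis) and NPC (y axis) as log2((mean H3K4me3 CPM + 1)/(mean H3K27me3 CPM + 1)) of 2 libraries each, for the genes of 4 lists; the line marks equal values. Naive pluripotency genes fall below the line, most neural progenitor and Hedgehog genes above it, and most forebrain genes lie at low values in both cell types.

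Of the 1711 NPC windows with both marks, 697 (40.7%) had both in ESC by the same rule, 938 (54.8%) had H3K4me3 alone there, 36 had H3K27me3 alone and 40 had neither. At the 938, the median H3K27me3 above the receptor windows went from 1.32 in ESC to 2.68 in NPC and H3K4me3 from 4.25 to 3.49, and 613 were called toward H3K27me3. These windows were chosen by the same libraries, so a move in this direction is built into the choice and is no test. Conversely, 697 of the 1172 ESC windows with both marks (59.5%) kept both in NPC and 318 (27.1%) had H3K4me3 alone, 290 of which were called toward H3K4me3, with the same limit. The H3K27me3 limits were higher in ESC (4.21-fold and 3.59-fold) than in NPC, beside an IgG library of 298458 counts, so windows near the limit can change class without a change in level.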

How the data were processed

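Per the series' labels, CUT&RUN libraries of NPC and ESC were deposited as raw counts per TSS window; the authors aligned reads to mm10 with Bowtie2 2.3.4.3 and used Picard 2.19, per the submitters' processing notes. Which program counted the reads, with what filters and duplicate handling, is not given in the sources used here. Spike-in DNA was added, but no spike-in count entered the scaling, so a shift of every window together could not be seen. Coordinates are those of the table, and 27 symbols turned into dates were restored through RefSeq transcripts.

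Counts were fitted with edgeR 4.0.16 (R 4.3.3) by quasi-likelihood over 5 NPC libraries, or 8 for the change from ESC, scaled by library totals because TMM assumes that most windows do not differ; filterByExpr used a minimum count of 10. Adjusted p-values are Benjamini-Hochberg over all windows tested. The script was tested on simulated data with a common spread and 100 windows changed at each size of difference. There the balance test recovered 8.2% of log2 differences of 1 and 60.4% of those of 2. For the change of the balance these were 20.4% and 70%. In the data 88.8% of windows were called for the balance, so the adjustment differs and these shares do not give the power of the tests above. A window that was not called is not shown to lack a difference. For the receptor window rule 2 counts were added to each value. PCR copies are not separate molecules, so limits cover counting error only; 3 counts correspond to 0.919 and 0.356 CPM for H3K4me3 and 3.33 and 1.91 for H3K27me3 in NPC.

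Named genes were fixed landmarks, the highest and lowest member of each list, the 5 called windows with the largest balance either way with non-overlapping replicates and the favoured mark called over IgG, the 5 highest of those called for both marks, and the 5 largest changes in each direction, without predicted, small RNA and receptor genes. A gene that this rule names is not reported here. Members, lists and landmarks were chosen with earlier results of these data known. RefSeq promoters were matched to 73.0% of windows, too few to compare base composition between classes. Same-numbered H3K4me3 and H3K27me3 libraries deviated with r = 0.213; with 2 pairs and no label that ties the numbers, they were not treated as pairs. Alternatives were DESeq2 1.42.0, TMM, receptor window scaling, voom (limma 3.58.1), other filters and folds, non-overlapping windows, a replicate block, other sets of libraries and each library left out.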

Additional observations from a re-analysis of the deposited data

Results flagged for a closer look

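The balance of the marks differed between the cell types by the interaction test at 3904 windows toward H3K4me3 in NPC and 4546 toward H3K27me3 (edgeR). The 5 named windows with the largest change toward H3K4me3 were Zeb2 (6.32), Frem1 (6.23), Elavl4 (6.22), Glra1 (5.84) and Neurod4 (5.72). At Zeb2, a regulator of neural development, H3K4me3 was 5.70 and 5.25 CPM in ESC and 108.8 and 132.3 in NPC, and H3K27me3 was 177.1 and 140.5 in ESC and 34.4 and 50.3 in NPC. Toward H3K27me3 the 5 largest fitted changes were at Bcl3 (-9.30), Fgf4 (-8.89), Icam1 (-8.47), Nphs1os (-8.24) and Firre (-8.23). At Bcl3 H3K4me3 was 124.3 and 129.5 CPM in ESC and 10.11 and 11.04 in NPC, and H3K27me3 was 4.14 and 3.09 in ESC and 156.3 and 236.3 in NPC. Its ESC H3K27me3 lay near 3 counts (3.11 and 4.63 CPM in these libraries), so the size of its change is uncertain. The Firre value depends on the prior count of the fit, since both ESC H3K27me3 libraries held 0 counts there, so its place among these 5 was not measured. Its H3K27me3 in NPC was 17.7 and 5.10 CPM, below the IgG value of 22.5. Against a floor of 3 counts in the ESC H3K27me3 libraries, the ratio of the marks at Firre was 3.61-fold lower in NPC. That value uses the mean of the unlike NPC H3K27me3 libraries, so it is no lower bound.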

How the results depend on the processing

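The balance counts over all windows kept to within 1.5 times with TMM factors, DESeq2, no filter, a minimum count of 30, glmTreat, voom, a fit without IgG and the replicate block. Receptor window scaling gave 196 windows with more H3K27me3, 13547 for H3K4me3 over IgG and 13547 of them alone, and 527 changes toward H3K4me3. It gave 0 for H3K27me3 over IgG, for both and for H3K27me3 alone, with 1647 at an unadjusted p below 0.05 (edgeR). TMM gave 8320 for H3K4me3 over IgG, 2982 for H3K27me3, 477 for both and 7843 for H3K4me3 alone, and DESeq2 8931, 1783, 429 and 8502. With the replicate block, which the labels do not tie to a batch, the balance calls were 8814 and 12153, H3K4me3 was called over IgG at 1219 windows, all of them alone, and H3K27me3 at 0, so that both and H3K27me3 alone were 0 (1440 unadjusted). Non-overlapping windows gave 6003 with more H3K4me3 and 2115 over IgG, 2067 alone. A log2 fold of 2 over IgG gave 339 for H3K4me3 (336 alone), 1037 for H3K27me3 (1034 alone) and 3 for both. Windows with both were 142 in a fit over 22 libraries and 135 with IgG of both cell types. voom gave 2801 changes toward H3K27me3. Chosen after seeing the data, a fit of H3K27me3 and IgG alone called 185, and the receptor window rule gave 13953 for H3K4me3, 1711 for both, 12242 and 279 alone, or 14524, 2488, 12036 and 301 at the 95th percentile.

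With 1 library left out, calls ran from 5284 to 9972 (H3K4me3 higher), 3181 to 11975 (H3K27me3 higher), 16 to 4112 and 0 to 2231 (H3K4me3 and H3K27me3 over IgG), 0 to 167 (both), 16 to 4005 and 0 to 2064 (either alone), and 2419 to 5569 and 2222 to 7368 (change toward H3K4me3 and H3K27me3). The cause was not tested.

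Of 1330 values of single genes under the alternatives, 1211 kept their direction and call, 56 lost a call, 22 gained one and 41 changed sign. The replicate block ended the calls of Sox9, Mamld1 (adjusted p = 0.0600) and Fgf10 (0.293). With TMM the balance was -0.23 at Glra1, -0.069 at Rnf17 and -0.10 at Tbx6. With DESeq2 it was 0.61 at Ccnd2, 0.21 at Fgf10, 0.059 at Hoxa2, 0.34 at Nkx2-2, 0.51 at Ppargc1b, 0.45 at Prox1 and 0.40 at Snai2. With receptor window scaling, which adds about 3.23, it was 2.98 at Ccnd2, 1.09 at Cdkn1c, 2.68 at Fgf10, 2.39 at Hoxa2, 2.24 at Hoxb2, 1.2 at Hoxc4, 1.79 at Klf4, 1.07 at Krt8, 2.02 at Mamld1, 2.13 at Nanog, 2.69 at Nkx2-2, 1.94 at Olfr620, 0.33 at Pax6, 1.96 at Phf19, 0.26 at Pou5f1, 2.89 at Ppargc1b, 2.82 at Prox1, 2.80 at Snai2, 1.09 at Vax1 and 1.21 at Vmn2r29. With 1 library left out, ranges that changed sign were -0.44 to 0.44 at Ccnd2, -0.039 to 0.17 at Glra1, -0.45 to 0.93 at Gusb, -1.07 to 0.084 at Hoxa2, -0.73 to 0.18 at Nkx2-2, -0.51 to 0.041 at Prox1, -0.064 to 0.36 at Rnf17, -0.54 to 0.016 at Snai2 and -0.60 to 0.74 at Tbx6 (-0.25 without H3K4me3 replicate 1).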
